A study of Homo sapiens with 24 samples.

Results

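Dopaminergic neurons exposed to 6-HD (6-hydroxydopamine) were compared directly with neurons exposed to MPP (the methylphenylpyridinium ion), over every gene that passed an expression filter. The libraries were chosen by the compound in their labels, which gave 3 of 6-HD and 3 of MPP, 6 of the 24 libraries in the study. The cells were LUHMES, an established human line from embryonic midbrain whose growth is driven by a v-myc gene that tetracycline switches off. They had been differentiated with tetracycline, cyclic AMP and GDNF, and every group shared that line, that treatment and the DMSO in which the toxins were dissolved. Cells received 6-HD at 1 µM, MPP at 5 µM or, as vehicle, 1% DMSO, for 6 h before RNA was taken, with 3 libraries in each group. The doses differ, so compound and dose cannot be told apart in what follows. One cell line was used, and the labels call the libraries biological samples of cultured cells without saying whether they came from separate differentiations, so p-values measure the spread between these samples only.

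6-HD and MPP are the classical laboratory toxins for dopamine neurons, and both enter the cell on the dopamine transporter. Inside, 6-HD oxidises readily in solution and in the cytosol, giving quinones and hydrogen peroxide that react with thiols on proteins. MPP is a lipophilic cation that accumulates in mitochondria, where it blocks complex I of the respiratory chain. Cells under such stress can switch on separate programmes, among them the unfolded protein response of the endoplasmic reticulum, the ATF4 response to phosphorylated eIF2α, and the NRF2 response to oxidised thiols.

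The 6-HD libraries held 10416420 to 21862855 counts, the MPP libraries 20635329 to 31805360 and the DMSO libraries 14290671 to 33365035. Levels are given as CPM, counts scaled to a fixed library total corrected by the trimmed mean of M-values (TMM). Differences were tested by edgeR's quasi-likelihood method, p-values were adjusted by Benjamini-Hochberg across the 18852 genes tested, and a gene was called at an adjusted p under 0.05. CPM does not correct for gene length, so levels are compared between groups and not between genes. The cells matched their label in part. SLC6A3, the dopamine transporter, and TH, which makes the dopamine precursor, were well detected, whereas SLC18A2, the vesicular monoamine transporter, averaged 0.386 CPM in 6-HD, 0.622 CPM in MPP and 0.32 CPM in DMSO, and LMX1A, FOXA1 and FOXA2 did not pass the filter. Of other identity factors, EN1 averaged 10.5 CPM in 6-HD, 8.21 CPM in MPP and 10.3 CPM in DMSO. In the same order PITX3 averaged 0.653, 0.61 and 1.07 CPM, and LMX1B 0, 0.165 and 0.0332 CPM. The 16 listed identity factors and receptors together summed to 801 to 890 CPM in 6-HD, 769 to 847 CPM in MPP and 869 to 903 CPM in DMSO. Most of that level came from members not named in this paragraph. Library 3 of MPP stood apart from the other 2 MPP libraries in its mitochondrial RNA, which made up 7.18% of its counts, against 4.9% and 5.01%.

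Between 6-HD and MPP, 2574 genes were called, 13.7% of those tested. Of these, 1164 (6.17%) were higher in 6-HD and 1410 (7.48%) were lower. At least 2-fold differences were fewer, with 293 genes higher and 136 lower, and the median size of a called difference was 0.511 on the log2 scale. All 3 libraries of one compound lay above all 3 of the other in 2489 of the called genes, and in 30.8% of all genes tested. The split by direction depended on the scaling: with library totals alone, 1915 genes were higher and 675 lower, and the median of all genes moved to 0.104 from 0.003 on the log2 scale. Set against DMSO in the same fit, 6-HD had 2 called genes, both higher (0.0106%), with 1074 genes at an unadjusted p under 0.05, and DESeq2 called 8 and limma-voom 2. MPP had 2034 called genes against DMSO (10.8%), of which 1088 were higher (5.77%) and 946 lower (5.02%). With library totals alone that split was 592 higher and 1564 lower, the 2 groups fitted alone gave 3983 calls, and leaving out MPP library 2 gave 1142, DMSO library 1 gave 1212 and DMSO library 2 gave 1186. Leaving out MPP library 2 also brought the 2574 calls between the toxins to 1424. These 3 comparisons share libraries, so their values are given side by side only.

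**Figure D1:**
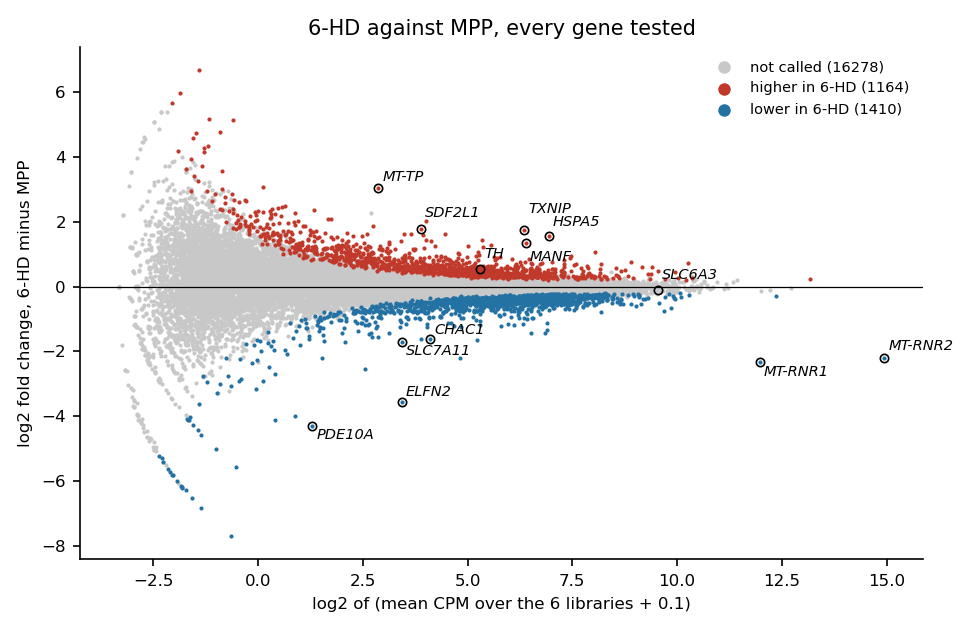
Log2 fold change, 6-HD minus MPP, of each of the 18852 genes tested (vertical axis) against the log2 of its mean CPM over the 6 libraries plus 0.1 (horizontal axis). Red points are the 1164 genes called higher in 6-HD, blue points the 1410 called lower, and grey points were not called. The mitochondrial ribosomal RNAs lie far to the right and below 0, and SLC6A3 lies near 0.

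The dopamine transporter through which both toxins enter was detected in every library of both. SLC6A3 stood at 760, 789 and 612 CPM in 6-HD, at 840, 798 and 698 CPM in MPP and at 697, 578 and 632 CPM in DMSO. The libraries of the 2 toxins overlapped, and the log2 fold change was -0.11, with a 95% interval of -0.34 to 0.12 (edgeR adjusted p = 0.577). Of 11 other monoamine and organic cation carriers, 7 passed the filter and none was called, and their median log2 fold change was -0.204, beside 0.003 over all genes. SLC29A4, a plasma membrane monoamine transporter, was at 55.8, 47.9 and 47.1 CPM in 6-HD, against 62.6, 59.1 and 52.1 CPM in MPP, and these overlapped too.

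TH (tyrosine hydroxylase, the rate-limiting enzyme of dopamine synthesis) and DDC (aromatic amino acid decarboxylase, the next enzyme) were both higher in 6-HD than in MPP. TH stood at 46.4, 49.7 and 43.1 CPM in 6-HD, at 32.1, 32.8 and 30 CPM in MPP and at 55.2, 51.4 and 45.9 CPM in DMSO. Every 6-HD library lay above every MPP library, with a log2 fold change of 0.55 ± 0.135 (SE; edgeR adjusted p = 0.00551). The 6-HD libraries lay close to DMSO (log2 fold change -0.12) and the MPP libraries below it (-0.68; edgeR adjusted p = 0.00087). DDC was low in all groups, at 2.74, 1.48 and 4.41 CPM in 6-HD, 1.19, 0.793 and 1.21 CPM in MPP and 2.56, 3.39 and 2.4 CPM in DMSO. Its groups did not overlap and its log2 fold change was 1.39, but the call was lost without 6-HD library 3 or MPP library 2 (edgeR adjusted p up to 0.0639). These were the only calls among 12 tested genes of dopamine synthesis, transport and breakdown, beside 13.7% of all genes called. The median log2 fold change of the 12 was 0.131. Of 13 tested identity factors and receptors of dopaminergic neurons, 1 was called, with a median of 0.08. It was OTX2, a midbrain homeobox factor, at a mean of 66.9 CPM in 6-HD and 82.5 CPM in MPP (log2 fold change -0.30), a call that ended without any of 4 single libraries (edgeR adjusted p up to 0.0908).

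Chaperones of the endoplasmic reticulum differed between the toxins across most of the list. Of 20 genes on the unfolded protein response list, 16 were higher in 6-HD than in MPP and 0 were lower, beside 6.17% and 7.48% of all genes. Their median log2 fold change was 0.556, beside 0.003 over all genes. In many of them the DMSO libraries lay between those of the toxins. Every 6-HD library was above every DMSO library in 13 of the 20, beside 5.85% of all genes, and every MPP library was below every DMSO library in 14 of the 20, beside 17.5%. By the edgeR test, 2 of the 20 were higher in 6-HD than in DMSO, beside 0.0106% of all genes (median log2 fold change 0.264). In MPP, 11 of the 20 were lower than in DMSO, beside 5.02% of all genes (median -0.369).

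HSPA5 (BiP, the main chaperone of the endoplasmic reticulum and the sensor-binding brake on the response) stood at 219, 161 and 169 CPM in 6-HD, at 52.4, 60.2 and 74.5 CPM in MPP and at 96.4, 115 and 119 CPM in DMSO. The 3 groups did not overlap, with 6-HD highest and MPP lowest. It was 2.94-fold higher in 6-HD than in MPP (log2 fold change 1.56 ± 0.133 SE; edgeR adjusted p = 1.27e-09). MANF, a secreted neurotrophic factor that binds HSPA5 and protects dopamine neurons, stood at 107, 107 and 145 CPM in 6-HD, at 49.9, 42.7 and 48.1 CPM in MPP and at 84.3, 74 and 73.2 CPM in DMSO. Again the 3 groups were apart in the same order, and the log2 fold change between the toxins was 1.35 ± 0.111 (SE; edgeR adjusted p = 6.4e-10). These were the 2 genes called in 6-HD against DMSO, with log2 fold changes of 0.73 for HSPA5 and 0.63 for MANF (edgeR adjusted p = 0.0392 each). Both of those calls against DMSO ended when single libraries were left out: without DMSO library 1, 2 or 3 the adjusted p was 0.478, 0.322 and 0.0931 for HSPA5 and 0.0785, 0.441 and 0.203 for MANF. The HSPA5 call also ended without 6-HD library 1 (0.225) or 3 (0.0675), and the MANF call without 6-HD library 3 (0.281).

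SDF2L1, a partner of the HSPA5 chaperone cycle, had the largest difference of the list. It stood at 23.8, 21.1 and 23.1 CPM in 6-HD, at 7.16, 5.41 and 7.18 CPM in MPP and at 16.4, 17.4 and 16 CPM in DMSO, with a log2 fold change of 1.79 ± 0.157 (SE; edgeR adjusted p = 2.33e-09). DNAJC3, a co-chaperone that also restrains the eIF2α kinases, stood at 58.4, 55.9 and 63.2 CPM in 6-HD, at 20.6, 23.4 and 20.6 CPM in MPP and at 37, 42.4 and 42.4 CPM in DMSO. Its log2 fold change was 1.45 ± 0.11 (SE; edgeR adjusted p = 1.37e-10). Smaller differences in the same direction were seen for the disulphide isomerases PDIA4 (0.90) and PDIA6 (0.46), for HSP90B1 (0.77), for the lectin chaperones CALR (0.61) and CANX (0.26), and for XBP1 (0.54), the transcription factor spliced by IRE1. The calls of CANX and of SEL1L, an adaptor of endoplasmic reticulum-associated degradation, each ended without some single library (edgeR adjusted p up to 0.0889 for CANX without 6-HD library 3, MPP library 1 or MPP library 2, and 0.129 for SEL1L without MPP library 1 or 2). The other 14 calls held with any 1 library left out and in the other settings tried. The genes not called were HERPUD1, SYVN1, EDEM1 and SEC61B, of which the first 3 serve or regulate degradation and the last is a channel subunit.

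CRELD2, a secreted chaperone, showed a different position of the vehicle. It stood at 80.4, 71.2 and 70.3 CPM in 6-HD, at 51.8, 48.8 and 48.1 CPM in MPP and at 75.6, 79.3 and 71.6 CPM in DMSO, so 6-HD and DMSO overlapped and MPP was apart. Its log2 fold change was 0.58 between the toxins, -0.03 for 6-HD against DMSO and -0.61 for MPP against DMSO.

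**Figure D2:**
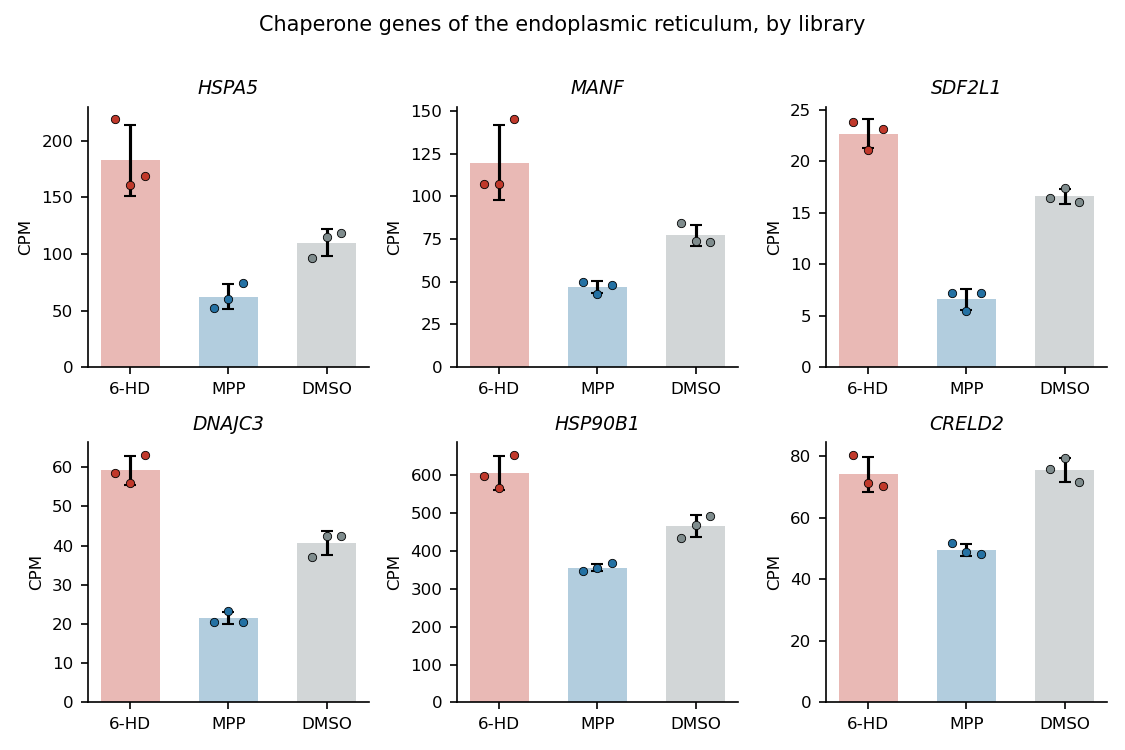
CPM in each library (points), with the group mean (bar, from 0) and SD (line), for 6 genes of the endoplasmic reticulum in 6-HD, MPP and DMSO, 3 libraries each. In each of the 6 panels the 6-HD points lie above the MPP points, and DMSO lies between them except for CRELD2, where it overlaps 6-HD.

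Factors such as ATF6 act on such genes through the endoplasmic reticulum stress element, CCAAT and CCACG held 9 bases apart, so the bases ahead of 4 of the genes are shown. Sequences are from RefSeq on GRCh38.p14, 5′ to 3′ in the direction of the gene, and stop before the gene as either annotation draws it. Capitals mark the fixed bases of the element in HSPA5 (chr9:125241344-125241593, minus strand) and CALR (chr19:12938359-12938577, plus strand), and only the CCACG matches in SDF2L1 (chr22:21642052-21642260, plus strand) and DNAJC3 (chr13:95676889-95677138, plus strand). Other spacings of CCAAT and CCACG were not searched. In CALR and SDF2L1 the match is on the opposite strand and so reads in reverse complement.
HSPA5: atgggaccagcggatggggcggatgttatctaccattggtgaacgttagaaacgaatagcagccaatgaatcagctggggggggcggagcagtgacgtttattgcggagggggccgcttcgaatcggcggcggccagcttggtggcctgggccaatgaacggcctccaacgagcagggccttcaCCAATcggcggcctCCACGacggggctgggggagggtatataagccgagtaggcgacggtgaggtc
CALR: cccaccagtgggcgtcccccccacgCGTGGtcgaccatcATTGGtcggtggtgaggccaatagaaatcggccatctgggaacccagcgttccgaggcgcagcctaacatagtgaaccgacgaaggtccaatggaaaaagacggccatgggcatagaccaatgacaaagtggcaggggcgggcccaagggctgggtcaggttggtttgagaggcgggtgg
SDF2L1: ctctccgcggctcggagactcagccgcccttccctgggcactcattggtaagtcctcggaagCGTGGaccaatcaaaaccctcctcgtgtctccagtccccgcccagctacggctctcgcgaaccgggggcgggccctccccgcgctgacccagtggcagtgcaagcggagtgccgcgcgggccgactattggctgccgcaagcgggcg
DNAJC3: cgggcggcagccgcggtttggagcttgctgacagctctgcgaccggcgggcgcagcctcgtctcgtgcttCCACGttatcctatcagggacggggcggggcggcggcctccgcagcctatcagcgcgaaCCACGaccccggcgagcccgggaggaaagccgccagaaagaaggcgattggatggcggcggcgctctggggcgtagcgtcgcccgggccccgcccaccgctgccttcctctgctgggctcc
In windows of 250 bases before to 50 after each start, the endoplasmic reticulum stress element was found on either strand in 9 of 27 promoters of the list, from 7 of its 20 genes, and in 0.0769% of all 35116 promoters. The 7 were CALR, CANX, CRELD2, HSP90B1, HSPA5, PDIA6 and XBP1. The shorter CCACG, which the long element contains, was in 38.1% of all promoters and in 85.2% of those of the list. SDF2L1, MANF and DNAJC3, among the largest differences, held CCACG in this window without a CCAAT at that spacing. So did HERPUD1, SYVN1 and EDEM1, which were not called. In the SDF2L1 bases shown, an unmarked ccaat lies just after the CGTGG, at a spacing that was not searched.

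Of 36 tested targets of ATF4, the transcription factor of the integrated stress response, 10 were lower in 6-HD than in MPP and 1 was higher, beside 7.48% and 6.17% of all genes. The other 25 were not called, and the median log2 fold change was -0.174. Against DMSO, 0 were called in 6-HD, while MPP had 15 higher and 2 lower, beside 5.77% and 5.02% of all genes. CHAC1, which degrades glutathione, stood at 10.6, 9.1 and 5.46 CPM in 6-HD, at 29.1, 25.8 and 23.4 CPM in MPP and at 7.54, 8.72 and 8.9 CPM in DMSO. The 6-HD libraries overlapped DMSO and lay below every MPP library, with a log2 fold change of -1.60 ± 0.201 (SE; edgeR adjusted p = 1.73e-06). SLC7A11, the cystine carrier that feeds glutathione synthesis, stood at 4.99, 6.14 and 3.54 CPM in 6-HD, at 13.8, 15.3 and 20.1 CPM in MPP and at 2.28, 4.6 and 4.02 CPM in DMSO (log2 fold change -1.71 ± 0.252 SE; edgeR adjusted p = 2.28e-05).

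DDIT3 (CHOP, a pro-apoptotic factor of prolonged stress) had a mean in 6-HD between those of the other groups, with 1 of its libraries inside the DMSO range. It stood at 17.7, 16.6 and 11.4 CPM in 6-HD, at 27.4, 26.7 and 27.6 CPM in MPP and at 7.4, 10.7 and 11.5 CPM in DMSO, and its log2 fold change between the toxins was -0.82 (edgeR adjusted p = 0.00174). PPP1R15A, which recruits the phosphatase that restores eIF2α, was at 108, 115 and 115 CPM in 6-HD, against 167, 163 and 154 CPM in MPP (log2 fold change -0.52). ATF4 itself was at 491, 490 and 548 CPM in 6-HD, at 683, 669 and 638 CPM in MPP and at 428, 462 and 452 CPM in DMSO (log2 fold change -0.38). The member that was higher in 6-HD was ALDH1L2, a mitochondrial folate enzyme, at a mean of 20.3 CPM in 6-HD, 12.9 CPM in MPP and 19.6 CPM in DMSO. SLC1A5, a glutamine carrier, was lower (-0.60), while ASNS, asparagine synthetase (0.11), and PHGDH, the first enzyme of serine synthesis (-0.05), were not called. Of the 10 lower calls 7 held with any 1 library left out. The call of ATF3 ended without 6-HD library 1 or MPP library 2 (edgeR adjusted p up to 0.0709), that of SESN2 without 6-HD library 2 or MPP library 1 (up to 0.201) and that of PSAT1 without any of 4 (up to 0.0707). Of 20 cytosolic aminoacyl-tRNA synthetases, many of which ATF4 also drives, 3 were higher in 6-HD and 0 lower (median 0.086). The shares over all genes were 6.17% and 7.48%. The 3 were WARS1 (0.47), AARS1 (0.30) and LARS1 (0.27). The AARS1 call ended without 6-HD library 2 or MPP library 2, and the LARS1 call without 6-HD library 3 (edgeR adjusted p up to 0.0841).

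Transcripts of the mitochondrial genome differed in both directions. The 2 ribosomal RNAs were lower in 6-HD, most messenger RNAs were lower, 3 were higher, and the transfer RNAs that passed the filter were higher. MT-RNR1, the small ribosomal RNA, stood at 1157, 1446 and 1402 CPM in 6-HD, at 5806, 5750 and 8492 CPM in MPP and at 1734, 1255 and 1323 CPM in DMSO. The 6-HD and DMSO libraries overlapped and every MPP library was above them, with a log2 fold change of -2.32 ± 0.144 (SE; edgeR adjusted p = 2.06e-12). MT-RNR2, the large ribosomal RNA, gave -2.19 ± 0.175 (SE; edgeR adjusted p = 3.74e-10). The pair took 1.27 ± 0.163% of all counts in 6-HD libraries, 5.47 ± 1.25% in MPP libraries and 1.25 ± 0.295% in DMSO libraries (SD over 3). The exact permutation test between the toxins gave p = 0.1, two-sided, the smallest that 3 against 3 allows. RNA had been selected for poly(A) tails and then depleted of ribosomal sequence, so these counts are what remained after both steps, and a difference in depletion was not tested.

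Of the 13 mitochondrial messenger RNAs, 9 were lower in 6-HD than in MPP and 3 were higher, beside 7.48% and 6.17% of all genes. The other 1 was not called, and the median log2 fold change was -1.157. All 12 calls held with any 1 library left out. The genes for complex I subunits MT-ND4L (-2.21), MT-ND1 (-1.65), MT-ND4 (-1.43), MT-ND5 (-1.16) and MT-ND2 (-1.13) were lower. MT-ND1 stood at 20.7, 13.8 and 19.4 CPM in 6-HD, at 52.6, 51.5 and 64.8 CPM in MPP and at 15.7, 17.3 and 18.6 CPM in DMSO, and its toxin groups were far apart. MT-ND3, of the same complex, went in the other direction, with 38.4, 49.4 and 48.8 CPM in 6-HD, 17.8, 16.4 and 22.9 CPM in MPP and 44.2, 43.5 and 39.5 CPM in DMSO (log2 fold change 1.26 ± 0.135 SE; edgeR adjusted p = 1.07e-07). Subunits of complex IV were split as well.

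MT-CO1 stood at 810, 845 and 942 CPM in 6-HD, at 552, 569 and 737 CPM in MPP and at 847, 864 and 861 CPM in DMSO (log2 fold change 0.48). MT-CO3 was at a mean of 1535 CPM in 6-HD, 933 CPM in MPP and 1567 CPM in DMSO (0.72), whereas MT-CO2 was at 149 CPM in 6-HD, 233 CPM in MPP and 163 CPM in DMSO (-0.65). MT-ND6, the messenger RNA read off the light strand, averaged 3.7 CPM in 6-HD and 3.62 CPM in MPP, with a 95% interval of the log2 fold change from -0.56 to 0.63. The 13 messages together made up 0.286 ± 0.0253% of counts in 6-HD, 0.23 ± 0.0313% in MPP and 0.29 ± 0.00947% in DMSO (SD over 3 libraries; exact permutation p = 0.2 between the toxins, two-sided).

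Of the 22 mitochondrial transfer RNAs, 3 passed the filter, all read off the light strand. All 3 were higher in 6-HD, beside 6.17% of all genes. A gene could pass through the groups in which it was high, so the 3 do not stand for the 22. MT-TP stood at 10.7, 11.8 and 15.9 CPM in 6-HD, at 1.52, 1.23 and 1.9 CPM in MPP and at 17.2, 8.56 and 9.88 CPM in DMSO (log2 fold change 3.05 ± 0.231 SE; edgeR adjusted p = 1.37e-10). MT-TY (2.61) and MT-TC (2.87) rested on few reads, and their calls ended without MPP library 1 or 2, and for MT-TC also without 6-HD library 1 or 2 (edgeR adjusted p up to 0.176). The strand setting of the counting is not given in the sources used here, so reads of a transfer RNA and reads of unprocessed RNA from the opposite strand cannot be told apart. Nuclear copies of mitochondrial DNA can also take or give reads.

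**Figure D3:**
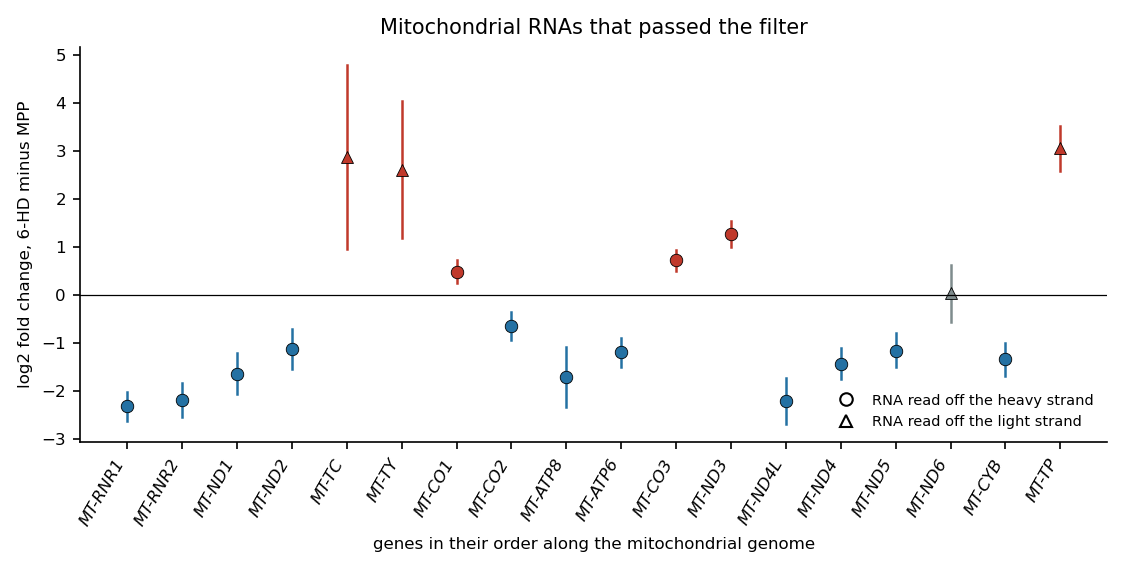
Log2 fold change, 6-HD minus MPP, with its 95% interval, for the 18 mitochondrial RNAs that passed the filter, in their order along the mitochondrial genome. Circles are RNAs read off the heavy strand and triangles those read off the light strand. MT-RNR1 and MT-RNR2 sit near -2.32 and -2.19, and MT-CO1, MT-CO3 and MT-ND3 are the circles above 0.

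Of 29 nuclear-encoded factors of mitochondrial transcription and RNA processing, 1 was higher and 3 were lower (median log2 fold change -0.002), a share close to the 13.7% of all genes called. FASTKD5, which is needed to process mitochondrial precursors that lack flanking transfer RNAs, stood at 44.1, 44.6 and 58.5 CPM in 6-HD, against 33.5, 34.7 and 32.5 CPM in MPP (0.54; edgeR adjusted p = 0.00041). POLG, the mitochondrial DNA polymerase, was lower (-0.65), as were LRPPRC, which stabilises mitochondrial messages (-0.31; not called with library totals alone, edgeR adjusted p = 0.0627), and MTPAP, the poly(A) polymerase (-0.40). The MTPAP call ended without any of 4 single libraries (edgeR adjusted p up to 0.145). TFAM (0.07) and POLRMT (-0.13), which start transcription, were not called. Of 37 nuclear subunits of complex I, the target of MPP, 4 were higher in 6-HD and 0 lower, beside 6.17% and 7.48% of all genes (median 0.115). NDUFC2 was at 52.6, 55 and 51.3 CPM in 6-HD, against 34, 32.8 and 39.8 CPM in MPP (0.58; edgeR adjusted p = 0.00286). The calls of NDUFA6, NDUFA9 and NDUFA11 each ended without 4 or 5 of the single libraries (edgeR adjusted p up to 0.243).

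Genes that follow sugar supply were higher in 6-HD than in MPP at 2 of their best known members. MondoA, a factor that reads glucose 6-phosphate, drives TXNIP, an inhibitor of thioredoxin and of glucose uptake, and its relative ARRDC4. TXNIP stood at 121, 132 and 123 CPM in 6-HD, at 43.9, 34.4 and 32.6 CPM in MPP and at 116, 123 and 130 CPM in DMSO. The 6-HD and DMSO libraries overlapped, and each lay above all 3 MPP libraries (log2 fold change 1.76 ± 0.106 SE; edgeR adjusted p = 1.76e-12). ARRDC4 was at 24, 22.9 and 22.2 CPM in 6-HD, at 7.82, 7.5 and 7.55 CPM in MPP and at 21.8, 18.9 and 22.5 CPM in DMSO (1.60 ± 0.145 SE; edgeR adjusted p = 4.23e-09).

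Of the 11 tested genes on that list, 4 were higher and 3 lower, beside 6.17% and 7.48% of all genes, with a median of 0.399. KLF10 (0.51) and PFKFB3 (0.45) were the other 2 higher genes, and ARRDC3 (-0.55), PDK4 (-1.60) and MLX (-0.44) were lower. The PFKFB3 call ended without 6-HD library 1 and the MLX call without 6-HD library 2 (edgeR adjusted p = 0.0705 and 0.0613). LDHA, which makes lactate, was the 1 call among 17 glycolytic enzymes (median 0.171), at 306, 292 and 253 CPM in 6-HD, 166, 178 and 201 CPM in MPP and 252, 224 and 279 CPM in DMSO (0.64; edgeR adjusted p = 0.000132). Of 22 hypoxia targets, PDK1 was higher (0.54) and ERO1A lower (-0.35), with a median of 0.133, and each call ended without some single library (without 6-HD library 1 for PDK1, edgeR adjusted p = 0.0691, and without any of 4 for ERO1A, up to 0.2). Of 24 cholesterol genes under SREBP2, 2 were higher and 4 lower (median -0.087), and those that held with any 1 library left out were STARD4 (0.49), a sterol carrier, and SREBF2 (-0.37), the factor itself. The other 4, HSD17B7 (0.31), HMGCS1 (-0.31), FDFT1 (-0.23) and DHCR7 (-0.33), lost their calls without at least 1 library.

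Of 18 feedback genes of the MAP kinases, 8 were lower in 6-HD and 0 higher, beside 7.48% and 6.17% of all genes, with a median log2 fold change of -0.387, and 6 of the 8 held with any 1 library left out. DUSP5, a phosphatase of nuclear ERK, stood at 10.4, 9.1 and 9.29 CPM in 6-HD, at 23.4, 23.4 and 22.3 CPM in MPP and at 7.54, 10.3 and 11.4 CPM in DMSO (-1.25 ± 0.15 SE; edgeR adjusted p = 7.29e-07). DUSP16, a phosphatase of JNK and p38, was at 44.4, 42.7 and 37.4 CPM in 6-HD, against 73.6, 73.8 and 77 CPM in MPP (-0.84), and DUSP1 was at 50.5, 44.5 and 45.9 CPM in 6-HD, against 75.8, 78.3 and 74.3 CPM in MPP (-0.69). For each of these the libraries of the toxins were fully apart. SPRY4, an inhibitor of receptor tyrosine kinase signals, lay lower in 6-HD than in both other groups, with 9.94, 10.6 and 13.1 CPM in 6-HD, 21, 16.8 and 17.7 CPM in MPP and 13.7, 18.3 and 16.9 CPM in DMSO. It was called between the toxins (-0.74; edgeR adjusted p = 0.000527) and not against DMSO (-0.56; edgeR adjusted p = 0.573). The calls of DUSP8 and SPRED3 ended without 4 and 5 of the single libraries (edgeR adjusted p up to 0.284). Of 18 immediate early genes, 3 were lower and 1 higher (median -0.231): NR4A1 (-1.17), JUND (-0.57) and ATF3 (-0.81) were lower, and JUNB was higher (0.40), a call lost with any single library left out (edgeR adjusted p from 0.0643 to 0.213). NF-kB and chemokine genes gave 1 call of 9, NFKBIA (0.40; median of the list -0.177), lost without any of 5 single libraries (edgeR adjusted p up to 0.228).

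Among genes tied to cell death, 7 of 24 p53 targets were lower in 6-HD and 2 higher, beside 7.48% and 6.17% of all genes (median -0.254). The death receptor TNFRSF10B was at 91.9, 84.4 and 72.9 CPM in 6-HD, at 120, 118 and 116 CPM in MPP and at 81.5, 78.3 and 86.6 CPM in DMSO (-0.50 ± 0.0844 SE; edgeR adjusted p = 0.00013). CCNG1 (-0.47), ZMAT3 (-0.50) and PMAIP1 (-0.74) were also lower, while TP53I3, a quinone oxidoreductase, was higher (0.74), at a mean of 34.2 CPM in 6-HD, 20.3 CPM in MPP and 32.8 CPM in DMSO. The calls of CDKN1A, RRM2B, FDXR and SESN2 ended without 2 or 3 of the single libraries (edgeR adjusted p up to 0.201). Of 15 BCL2 family genes, 2 were lower and 0 higher (median -0.149), a share close to the 13.7% of all genes called. HRK, a BH3-only killer expressed in neurons, stood at 27.3, 30 and 22.5 CPM in 6-HD, at 41.2, 47.3 and 43.2 CPM in MPP and at 26.9, 29.5 and 24.8 CPM in DMSO (-0.71 ± 0.123 SE; edgeR adjusted p = 0.000185). PMAIP1 (NOXA), another BH3-only gene, was at 7.11, 7.02 and 8.43 CPM in 6-HD, against 11.4, 13.5 and 12.6 CPM in MPP.

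**Figure D4:**
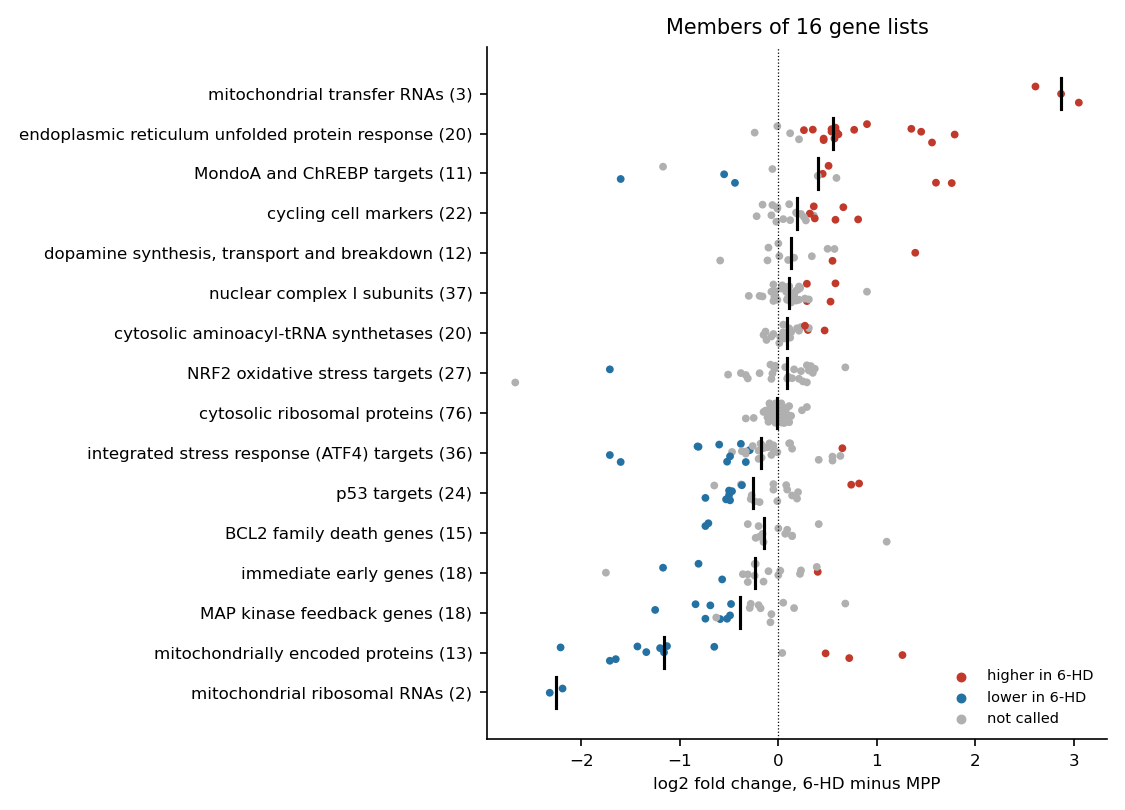
Log2 fold change, 6-HD minus MPP, of the tested members of 16 gene lists (points), with the number tested in brackets and the median of each list as a black bar. Red points were called higher in 6-HD, blue points lower and grey points not called, and the dotted line is the median of all genes. The endoplasmic reticulum list sits at a median of 0.556 and the MAP kinase feedback list at -0.387.

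Genes of the oxidative stress response gave few calls between the toxins. Of 27 tested NRF2 targets, 0 were higher in 6-HD and 1 was lower, beside 6.17% and 7.48% of all genes (median 0.093). The 1 was SLC7A11, given above with the ATF4 genes. HMOX1, haem oxygenase, stood at 26.9, 29.9 and 31.7 CPM in 6-HD, at 25.4, 23.8 and 23 CPM in MPP and at 26, 23.9 and 24.3 CPM in DMSO. Its 6-HD libraries were all above the MPP ones, but the log2 fold change of 0.29 had a 95% interval of -0.06 to 0.63 (edgeR adjusted p = 0.285). NQO1, a quinone reductase, gave 0.31 with an interval of 0.05 to 0.58 (edgeR adjusted p = 0.113). AKR1C1 lay just outside the threshold (0.35; edgeR adjusted p = 0.0503), with its toxin libraries apart, and was called higher in 8 of 16 other settings. Its log2 fold change against DMSO was -0.13 in 6-HD and -0.48 in MPP. TXN (0.23) gained a higher call in 2 settings and TKT (-0.33) a lower call in 3.

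Of 39 glutathione, peroxiredoxin and thioredoxin enzymes, 3 were higher and 2 lower, beside 6.17% and 7.48% of all genes (median 0.078). GSTZ1, a glutathione transferase of tyrosine breakdown, was at 18.6, 22.3 and 17 CPM in 6-HD, against 14, 11.2 and 10.9 CPM in MPP (0.69; edgeR adjusted p = 0.00175), and CHAC1 was the other call to hold with any 1 library left out. GSTA4 (0.26), GLRX (0.33) and MGST1 (-0.62) lost theirs without at least 1 library. None of 8 tested metallothioneins was called (median -0.679). MT1G stood at 0, 0.274 and 5.65 CPM in 6-HD, at 1.58, 2.09 and 3.38 CPM in MPP and at 0, 0.0404 and 0.0296 CPM in DMSO. One 6-HD library was above every MPP library and the other 2 below, and the 95% interval of the log2 fold change ran from -2.77 to 1.30. Heat shock genes gave 1 higher and 1 lower call of 19 (HSPA1B, 0.51, and CHORDC1, -0.38; median 0.026), lost without 6 and 5 of the single libraries (edgeR adjusted p up to 0.166). Iron genes gave 1 call of 11, TFRC, the transferrin receptor (-0.41; median -0.048), lost without any of 3 single libraries (edgeR adjusted p up to 0.0589).

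Housekeeping machines were close to level. None of 76 cytosolic ribosomal protein genes was called, beside 13.7% of all genes (median -0.013). Of 31 proteasome subunits 2 were higher (PSMA7 and PSMD7, 0.32 each; median 0.103), and of 14 tubulins 1 was higher (TUBA1A, 0.24; median 0.124). TUBB1, a beta tubulin of low level that was also higher, is outside that list and is given below. The call of PSMA7 ended without 6-HD library 3 (edgeR adjusted p = 0.0506), that of PSMD7 without 6-HD or MPP library 2 (up to 0.144) and that of TUBA1A without 6-HD library 3 or MPP library 2 or 3 (up to 0.227).

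The lists of synaptic, ion channel and axon guidance genes had shares of called genes close to the 13.7% of all genes or below it. Of 24 genes of synaptic vesicles and release, 3 were lower in 6-HD and 0 higher (median -0.105). SYT4, a synaptotagmin, stood at 306, 311 and 368 CPM in 6-HD, at 440, 467 and 508 CPM in MPP and at 327, 327 and 322 CPM in DMSO (-0.52 ± 0.088 SE; edgeR adjusted p = 0.000127). The calls of SNAP25 (-0.26) and SYN2 (lower in 6-HD) ended without any of 5 single libraries (edgeR adjusted p up to 0.235). Of 28 voltage-gated channels, 2 were lower and 1 higher (median -0.239). The sodium channel SCN8A was at 71.8, 63.8 and 45.6 CPM in 6-HD, at 91.5, 102 and 98.8 CPM in MPP and at 59.6, 55.6 and 65.7 CPM in DMSO (-0.68; edgeR adjusted p = 0.00019), the potassium channel KCNH2 was lower (-0.70) and the sodium channel SCN3A higher (0.43), a call lost without any of 5 single libraries (edgeR adjusted p up to 0.18).

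Of 38 axon guidance genes, 3 were lower and 1 higher (median -0.028). UNC5B, a netrin receptor, was at 4.41, 3.34 and 2.39 CPM in 6-HD, against 7.76, 8.58 and 6.44 CPM in MPP (-1.13; edgeR adjusted p = 0.000446), and the repellent SEMA3A was at 54.9, 58.7 and 64.6 CPM in 6-HD, against 41.3, 43.8 and 41.4 CPM in MPP (0.49). DCC (-0.46) and EFNB1 (-0.46) lost their calls without 2 and 4 of the single libraries (edgeR adjusted p up to 0.126).

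Of 21 pan-neuronal markers, 3 were higher and 1 lower (median 0.023), with ELAVL2 (0.38) and NEFH (0.38) holding with any 1 library left out, and GAP43 (0.25) and SNAP25 losing theirs without at least 1. Their summed level ran from 11000 to 12100 CPM in 6-HD, from 10400 to 11700 CPM in MPP and from 10700 to 12300 CPM in DMSO. Of 22 cycling cell markers, 6 were higher in 6-HD and 0 lower, beside 6.17% and 7.48% of all genes (median 0.182), and their sum was 1150 to 1310 CPM in 6-HD, 1090 to 1140 CPM in MPP and 1060 to 1130 CPM in DMSO. MCM5, part of the replication helicase, was at 35.6, 40 and 38.1 CPM in 6-HD, at 26.1, 25.3 and 24.3 CPM in MPP and at 28.5, 31.9 and 27.9 CPM in DMSO (0.58; edgeR adjusted p = 0.000701). RRM2, which supplies deoxynucleotides, was at 25.1, 24.1 and 23.8 CPM in 6-HD, against 14.6, 15.4 and 16.5 CPM in MPP (0.66), and MCM4 was higher by 0.36. The calls of PCNA, MCM3 and TYMS each ended without 2 to 4 of the single libraries (edgeR adjusted p up to 0.2), and the mitotic markers MKI67 (0.36) and TOP2A (-0.02) were not called. In bulk RNA, fewer cells of a type and less RNA per cell cannot be told apart.

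Of 11 neural precursor markers, HES1, a Notch target, was higher, at 3.37, 4.17 and 2.87 CPM in 6-HD, 1.25, 0.613 and 1.27 CPM in MPP and 2.28, 2.58 and 2.72 CPM in DMSO (1.76; edgeR adjusted p = 0.000975). NOTCH1 (-0.56) and VIM (-0.34) were lower, with calls lost without 2 and 3 of the single libraries (edgeR adjusted p up to 0.103). The list thus had 1 gene higher and 2 lower, beside 6.17% and 7.48% of all genes, and its median was 0.078. Of 11 tested astrocyte and oligodendrocyte markers, SLC1A3, a glutamate carrier, was lower, at 5.44, 3.13 and 4.02 CPM in 6-HD, 10.4, 11.2 and 8.02 CPM in MPP and 3.27, 4.16 and 5.06 CPM in DMSO (-1.22; edgeR adjusted p = 0.000829; median of the list -0.111). The glial list summed to 167 to 189 CPM in 6-HD, 197 to 202 CPM in MPP and 194 to 208 CPM in DMSO, and the defining glial genes GFAP and SOX10 did not pass the filter. The part of these shifts in the other results was not tested.

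Wide gaps were also seen in single genes outside the lists. ELFN2, a synaptic adhesion protein that binds glutamate receptors, stood at 1.35, 2.25 and 1.34 CPM in 6-HD, at 18.9, 25 and 15.3 CPM in MPP and at 0.854, 1.05 and 1.48 CPM in DMSO. It was 11.8-fold higher in MPP than in 6-HD (log2 fold change -3.56 ± 0.265 SE, 6-HD minus MPP; edgeR adjusted p = 1.31e-10). PEAR1, a transmembrane receptor of platelets and vessels, was at 1.08, 2.25 and 1.82 CPM in 6-HD, at 10.5, 10.1 and 8.71 CPM in MPP and at 1.28, 0.808 and 1.33 CPM in DMSO (-2.53; edgeR adjusted p = 6.2e-07). PDE10A, a phosphodiesterase of cyclic nucleotides, gave 10, 2 and 0 reads in 6-HD, against 113, 126 and 100 reads in MPP and 2, 14 and 32 reads in DMSO (-4.30; edgeR adjusted p = 0.000211). In each of these, 6-HD and DMSO overlapped and MPP stood alone. They were among the 15 lowest genes, named only where the libraries of the toxins did not overlap. The gap between the toxins was therefore set by that choice.

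The other genes among the 15 lowest were KLF15, BTC, PRR5L, RTL9, KCNMB2, the antisense genes ZIM2-AS1 and IER5L-AS1, and the mitochondrial and ATF4 genes already given, among them MT-ATP8 (-1.71). Of these, PRR5L lost its call without 6-HD library 2 (edgeR adjusted p = 0.0637) and IER5L-AS1 without 6-HD library 1 or 3 (up to 0.0754). The 15 highest were led by MT-TP and by genes of low level, among them FBXL8, an F-box protein, at 4.41, 5.48 and 2.2 CPM in 6-HD, 1.16, 0.397 and 0.844 CPM in MPP and 4.41, 3.39 and 3.81 CPM in DMSO (2.36; edgeR adjusted p = 7.09e-05). MIR210HG, host of a hypoxia-induced microRNA, was at 6.25, 4.61 and 4.21 CPM in 6-HD, against 1.42, 1.66 and 0.317 CPM in MPP (2.09). In DMSO it was at 3.77, 3.55 and 6.09 CPM, with log2 fold changes against DMSO of 0.16 in 6-HD and -1.93 in MPP. TUBB1, a beta tubulin, was at 1.62, 1.86 and 2.59 CPM in 6-HD, against 0.198, 0.505 and 0.581 CPM in MPP (2.25) and 1.07, 1.21 and 2.07 CPM in DMSO. The rest of the 15 highest were SDF2L1, TXNIP, LINC00683, LINC01836, ARL9, FBF1, NUDT19-DT and the antisense genes ARHGEF7-AS2, UFD1-AS1, EXOC3-AS1 and MSANTD2-AS1. Of these, ARL9 lost its call without 6-HD library 3 (edgeR adjusted p = 0.0747), NUDT19-DT and FBF1 without any of 3 single libraries (up to 0.16). Reads of an antisense gene and its partner cannot be told apart without the strand setting.

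**Figure D5:**
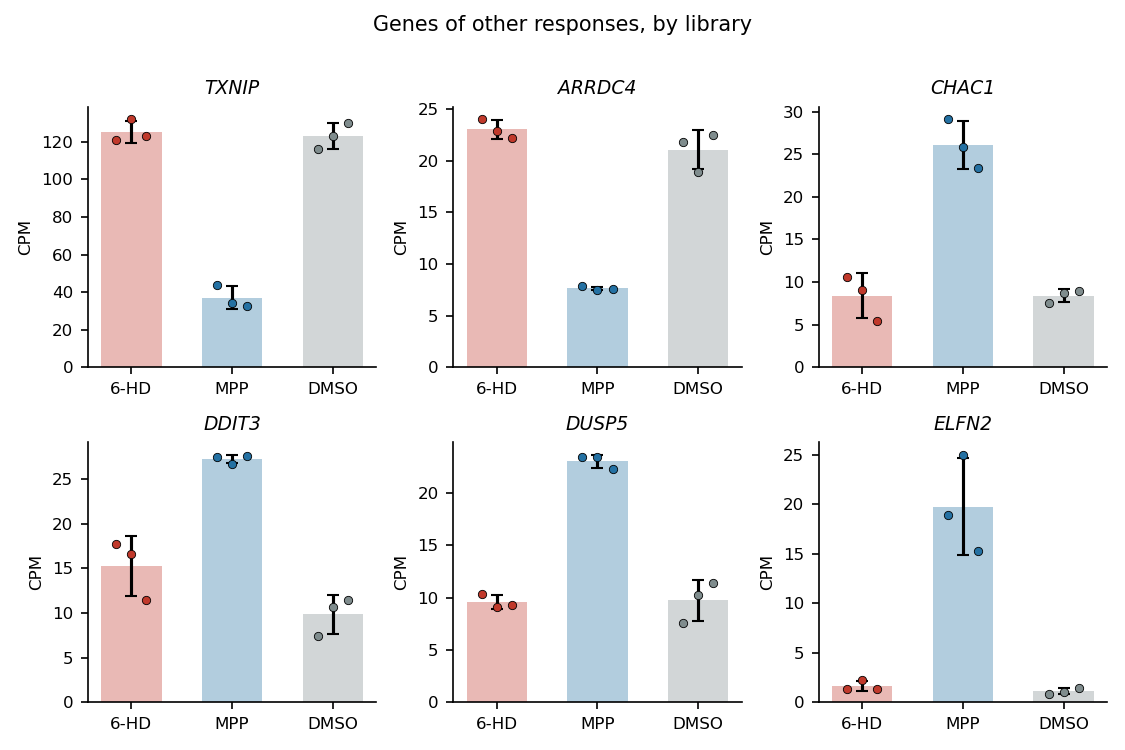
CPM in each library (points), with the group mean (bar, from 0) and SD (line), for TXNIP, ARRDC4, CHAC1, DDIT3, DUSP5 and ELFN2 in 6-HD, MPP and DMSO, 3 libraries each. TXNIP and ARRDC4 are lowest in MPP and the other 4 are highest in MPP.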

How the data were processed

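Differentiated LUHMES neurons were sequenced as poly(A)-selected, ribosomal RNA-depleted TruSeq libraries. The deposited values are raw gene counts, 58051 Ensembl genes in 24 libraries. Per the submitters' processing notes STAR, HTSeq and DESeq were used with GRCh38. For versions, annotation and strand setting, the sources used here give nothing. The deposited normalized matrix was not used. Symbols came from a name table (56948 IDs matched) and positions from GENCODE 29. Within 6-HD, MPP and DMSO, no 2 libraries of a group agreed within counting noise.

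Counts were filtered with filterByExpr over the 8 groups (18852 genes kept), scaled by TMM and fitted with edgeR 4.0.16 in R 4.3.3, all 24 libraries with 1 coefficient a group (16 residual degrees of freedom). DESeq2 1.42.0 and limma-voom (limma 3.58.1) were alternatives, beside other scalings, filters, samples and each library left out. The procedure was tested on simulated data. The members and the 36 gene lists were chosen with earlier results of these data known, and the stress element with its spacing was added after the values were seen.

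Named genes were the 15 highest and 15 lowest by log2 fold change among called genes of at least 2 CPM in the higher group whose libraries did not overlap, clones and pseudogenes aside; up to 4 of each list by smallest p; and 11 fixed genes. Other list members that are named, and ATF4 targets and carriers given for their role, were picked after their values were seen. The result of 1 list is not reported here.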

Additional observations from a re-analysis of the deposited data

How the results depend on the processing

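The 2574 calls of 6-HD against MPP numbered 2127 to 3229 under the other scalings, filters, tools and sample choices, and 1424 (without MPP library 2) to 2134 with 1 library left out. Of the 2574, 54.8% stayed called without MPP library 2 and 99.8% with DESeq2, and every one that was tested kept its sign in each setting. With library totals alone, 1915 genes were higher and 675 lower. With 1 library left out, 649 to 955 were higher and 775 to 1179 lower. Against DMSO, 6-HD had 18 calls with no filter, 8 with DESeq2, 1 with the 2 groups fitted alone, 0 with the 3 groups fitted alone and 0 to 2 with 1 library left out. MPP against DMSO had 3983 calls with the 2 groups fitted alone (2152 higher, 1831 lower) and 1142 to 1430 with 1 library left out (612 to 799 higher, 518 to 641 lower), and library totals alone gave 592 higher and 1564 lower. The cause was not tested. Deviations of same-numbered libraries of the toxins from their group means had correlations of 0.0371, -0.00318 and 0.0371. Those of differently numbered libraries ran from -0.05 to 0.0223. Values this small, taken over all genes, cannot decide whether the numbers pair the libraries. With the replicate number as a block, 2342 genes were called between the toxins, 0 in 6-HD against DMSO and 1860 in MPP against DMSO. Of 113 named genes with a call, 73 kept it in every setting, 40 lost it in at least 1 and 0 changed sign, and 29 of 52 without a call gained one in at least 1. The smallest 6-HD library, of 10416420 counts, limits genes of low level most.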

Other observations

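Genes of different annotated types were split differently between the toxins. Of 1237 antisense genes tested, 104 were higher in 6-HD than in MPP and 17 lower, beside 6.17% and 7.48% of all genes, with a median log2 fold change of 0.39. Of 1257 long intergenic non-coding genes, 116 were higher and 21 lower (median 0.37). Of 14431 protein-coding genes, 855 were higher and 1335 lower (median -0.03). Processed pseudogenes had a median of 0.10, with 5 of 583 higher and 4 lower. The median level in MPP was 0.505 CPM for processed pseudogenes and 0.49 CPM for antisense genes. The part of expression level in these splits was not tested. In MPP against DMSO the medians were -0.36 for antisense, -0.33 for long intergenic and 0.03 for protein-coding genes, and in 6-HD against DMSO 0.03, 0.05 and -0.00. These comparisons share libraries, and the strand setting of the counting is not given, so antisense counts may hold reads of the partner gene.

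Some genes whose RNA hosts small nucleolar RNAs were picked by name (SNHG genes, GAS5, ZFAS1, EPB41L4A-AS1 or DANCR). Hosts with other names were not counted. Of the 28 tested, 9 were lower in 6-HD than in MPP and 1 was higher, beside 7.48% and 6.17% of all genes (median -0.25). In MPP against DMSO, 11 of the 28 were higher and 0 lower, beside 5.77% and 5.02% of all genes. SNHG1 stood at 52.5, 47.8 and 49.9 CPM in 6-HD, at 112, 113 and 109 CPM in MPP and at 40.5, 45.8 and 51.2 CPM in DMSO (log2 fold change -1.15; edgeR adjusted p = 5.6e-08). SNHG7 stood at 51.7, 43.5 and 52.8 CPM in 6-HD, at 138, 140 and 118 CPM in MPP and at 48.7, 51.1 and 55 CPM in DMSO (-1.43; edgeR adjusted p = 6.4e-10).

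Several RNA-binding proteins of nuclear paraspeckles were higher in 6-HD than in MPP. SFPQ stood at 352, 356 and 374 CPM in 6-HD, at 180, 179 and 151 CPM in MPP and at 321, 319 and 338 CPM in DMSO (log2 fold change 1.08 ± 0.0851 SE; edgeR adjusted p = 3.12e-10). RBM14 (0.95), PSPC1 (0.84) and EWSR1 (0.82) were also higher. Against DMSO, RBM14, PSPC1 and EWSR1 gave 0.07, -0.10 and -0.08 in 6-HD and -0.89, -0.94 and -0.89 in MPP. By contrast NONO, the partner of SFPQ, was at 741, 712 and 712 CPM in 6-HD and 793, 759 and 748 CPM in MPP (-0.09, edgeR adjusted p = 0.431). NEAT1, the RNA scaffold of paraspeckles, was at 2.83, 1.1 and 1.82 CPM in 6-HD, against 0.759, 0.829 and 0.686 CPM in MPP (1.34; edgeR adjusted p = 0.0683). These genes, and the gene types and host genes above, were chosen after their values were seen.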
